A study of Mus musculus with 4 samples.

Results

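The antioxidant programme of the transcription factor NRF2 was examined in mouse dorsal skin through 10 genes: the factor itself (Nfe2l2), its inhibitor Keap1, and the target genes Nqo1, Hmox1, Gclc, Gclm, Slc7a11, Gsr, Txnrd1 and Srxn1. The members were chosen by name, with earlier results of these data known. Every probe set that the platform annotation gives to one of these symbols was taken. All 10 genes were found, with 21 of the 45037 probe sets that are not controls. Of these 21 probe sets, 17 passed a filter on low signal, so that 9 of the 10 members were among the 13070 genes tested. The exception was Slc7a11.

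The genotypes were compared at postnatal day 16: wild type mice, and bitransgenic mice labelled as overexpressing deltaNp63alpha, the isoform of p63 that predominates in basal keratinocytes. Each genotype had 2 biological replicates on single-colour Affymetrix arrays, 1 array per animal (n = 2 per group throughout). The labels give no strain, litter, transgene promoter or inducing treatment, so nothing further is known here about what drives the transgene or in which cells. Values are linear array intensities, called signals below, and differences are bitransgenic minus wild type on the log2(signal + 16) scale. Signals of a genotype are given with replicate 1 first.

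NRF2 is a basic leucine zipper activator that pairs with small MAF proteins at antioxidant response elements. In unstressed cells KEAP1 holds it for ubiquitination by a CUL3 ligase. Electrophiles and oxidants modify cysteines of KEAP1, and NRF2 then accumulates and switches on genes for glutathione synthesis, thioredoxin reduction, quinone detoxification and haem breakdown. In epidermis the pathway is known for protection against ultraviolet light and chemicals, and for effects on cornified envelope proteins when it is forced on.

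The element that NRF2 binds was looked for in the members' promoters, to show which windows hold its letters beside the expression values. The RefSeq table (GRCm38.p6) gives 250 bases before and 50 bases after each start site. It held 7 of the 10 members in 9 windows; Hmox1, Gclc and Gsr were not matched. The core was searched as TGACNNNGC on both strands, and, chosen after the sequences had been seen, as TGAGNNNGC. The first form occurs in 12.4% and the second in 17.6% of all 32851 windows, and 27.8% hold at least 1 of them. Among the members, 4 windows held the first form, 2 the second, and 5 of 9 at least 1. Printed 5′ to 3′ on the gene's strand are the 250 bases before the start site of the 4 genes that represent these cases, with core matches in capitals. In Nqo1, which had neither form, the capitals mark the TATA box letters TATAAA.
Nqo1, chr8:107403206-107403455 (- strand): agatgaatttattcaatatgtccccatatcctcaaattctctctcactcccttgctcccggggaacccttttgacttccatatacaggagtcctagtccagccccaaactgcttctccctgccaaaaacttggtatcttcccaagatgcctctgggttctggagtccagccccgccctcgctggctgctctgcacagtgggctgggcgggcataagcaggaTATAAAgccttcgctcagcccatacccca
Srxn1, chr2:152105274-152105523 (+ strand): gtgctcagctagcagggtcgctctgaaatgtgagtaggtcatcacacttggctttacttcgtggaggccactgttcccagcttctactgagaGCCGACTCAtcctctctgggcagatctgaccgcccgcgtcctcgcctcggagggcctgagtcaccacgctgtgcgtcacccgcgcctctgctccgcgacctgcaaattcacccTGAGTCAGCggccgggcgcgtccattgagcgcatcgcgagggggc
Gclm, chr3:122245307-122245556 (+ strand): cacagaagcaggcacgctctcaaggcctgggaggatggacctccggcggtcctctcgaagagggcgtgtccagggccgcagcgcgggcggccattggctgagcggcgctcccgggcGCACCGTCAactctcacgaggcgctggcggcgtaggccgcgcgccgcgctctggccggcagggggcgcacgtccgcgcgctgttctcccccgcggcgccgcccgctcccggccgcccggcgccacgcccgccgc
Nfe2l2, chr2:75704664-75704913 (- strand): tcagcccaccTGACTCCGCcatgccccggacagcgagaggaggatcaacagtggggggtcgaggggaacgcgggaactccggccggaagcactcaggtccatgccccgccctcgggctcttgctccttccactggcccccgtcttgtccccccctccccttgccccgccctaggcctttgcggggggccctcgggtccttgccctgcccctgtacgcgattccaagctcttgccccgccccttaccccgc
The Srxn1 window held TGAGTCAGC on the gene's strand from -45 to -37, where -1 is the base before the start site. This match overlaps an AP-1 element (TGANTCA), and none of the other matches in members' windows does. Srxn1 also held TGAGTCGGC on the opposite strand from -158 to -150, and TGACCTAGC on the opposite strand from 29 to 37 after the start site. Gclm held TGACGGTGC on the opposite strand from -134 to -126. Nfe2l2 held TGACTCCGC on its own strand from -240 to -232. Of the 3 windows of Txnrd1, 1 held TGACAAAGC on the opposite strand from -92 to -84. Slc7a11 held TGAGAAAGC on the opposite strand from -97 to -89, and Keap1 had no match. TATAAA lies from -29 to -24 in Nqo1, and 2.63% of all windows have these letters in the 50 bases before the start site. A match describes the letters of a window and is not evidence of binding, and no match says only that these letters are not in this window.

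The arrays were checked first. In bitransgenic skin Trp63, the p63 gene, had signals of 10325 and 15247 with 1 of its 4 probe sets, against 206 and 838 in wild type skin. Another probe set was 23.1-fold higher. In limma's fit of all probe sets these had an adjusted p of 0.0613 and 0.0591, and the remaining ones 0.983 and 0.943. No Trp63 probe set thus passed 0.05 in this fit, which applied no filter on low signal. The probe set that stood for Trp63 among the genes tested and in the keratinocyte sum below was 1 of the remaining ones. It read 4968 and 5812 in wild type skin, against 5176 and 5302 in bitransgenic skin. The ratio of 3' to 5' Gapdh control signals, a sign of RNA quality, was 1.55 on wild type replicate 1 and from 0.93 to 1.02 on the other 3 arrays. Keratinocyte markers were bright on every array, with a summed signal of 85077 to 122285 over 7 genes. The 10 hair shaft and inner root sheath markers summed to 138433 and 225476 on the wild type arrays, against 1335 and 18958 on the bitransgenic arrays, and 6 of the 10 fell. Of 7 skeletal muscle markers 6 fell, with sums of 176119 and 73618 against 16320 and 21348. The 6 fat cell and 6 dermal fibroblast markers each had lower sums on both bitransgenic arrays, although none of them passed. Of 7 neutrophil markers only 3 were tested. Ly6g and Retnlg had no probe set under these symbols, and Camp and Elane did not pass the filter on low signal. The sums of the 3 tested markers were higher on both bitransgenic arrays, at 190 and 183 in wild type against 604 and 757. None of these markers passed. The part of these compartments in the members' values was not tested. In a piece of skin, fewer cells of a type and less RNA per cell cannot be told apart. Each genotype had 1 array with high Y-linked Eif2s3y signal and 1 with high Xist. Eif2s3y was high on wild type replicate 1 (1922) and bitransgenic replicate 2 (1211.5), and Xist on wild type replicate 2 (5182) and bitransgenic replicate 1 (6195). Arrays of the same number thus had opposite sex signals. Differences between same-numbered arrays, and the replicate block, therefore do not compare genotypes within a sex.

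**Figure D1:**
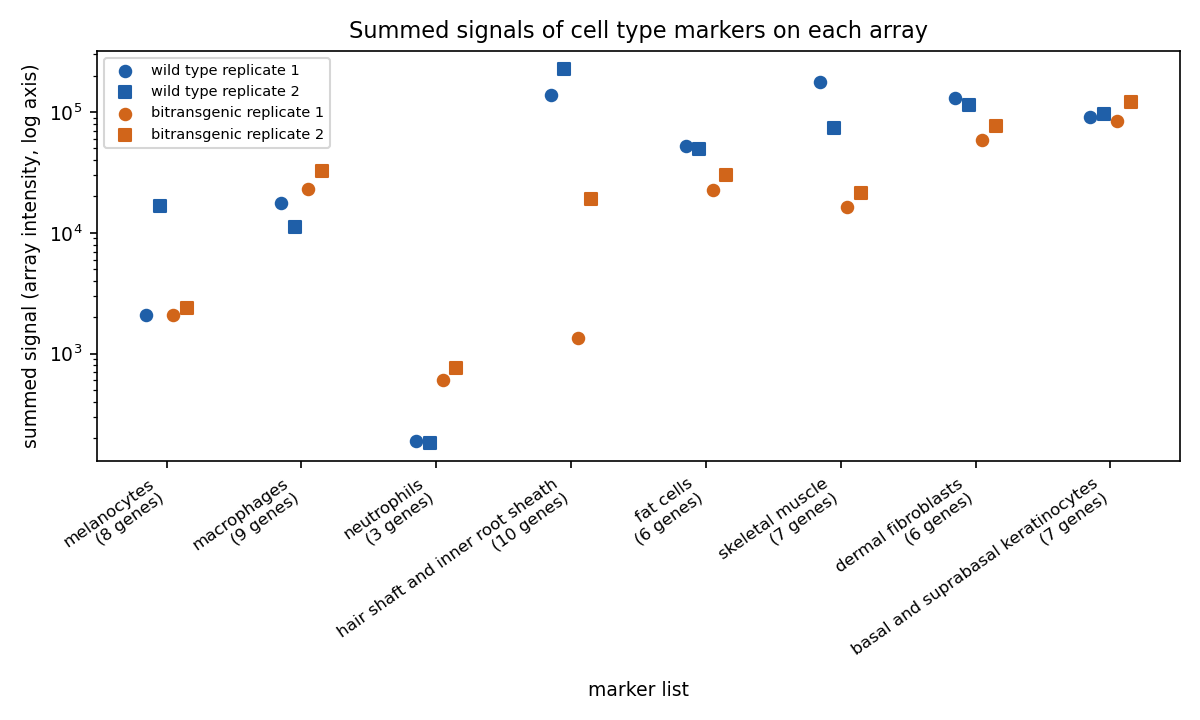
Summed signal (log axis) of cell type markers on each of the 4 arrays; colours mark genotype and shapes mark replicate number. Melanocyte markers stood at 16616 on wild type replicate 2 and between 2101 and 2395 on the other 3 arrays, while hair markers were lower on both bitransgenic arrays.

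No member of the NRF2 pathway passed the threshold between the genotypes. With limma and Benjamini-Hochberg adjustment over 13070 genes, 0 of 9 tested members had an adjusted p under 0.05, against 2.33% of all genes. At an unadjusted p under 0.05 there was 1 member, Nqo1 (11.1%, against 16.7% of all genes). The median difference of the 9 members was 0.26, with 6 positive and 3 negative values from -0.74 to 1.16, while the median of all genes was 0.0053 and 50.5% were positive. Under other settings the members' median ran from 0.24 with no filter to 0.44 with the mean of kept probe sets, and it was 0.43 without wild type replicate 2. The value of 0.44 takes in a dim Keap1 probe set that passed the filter through its bitransgenic signals. The arrays of the genotypes did not overlap for 6 of the 9 members (66.7%, against 48.8% of all genes), with 5 higher (against 23.9% of all genes) and 1 lower (against 24.9%) in bitransgenic skin. The interval of the difference lay within 2-fold in either direction for only 2 members, Keap1 and Gclc. For the other 7 the interval held a difference of 2-fold in at least 1 direction. With either bitransgenic array left out, the intervals of Keap1 and Gclc held 2-fold too. So did the interval of Keap1 without wild type replicate 1 and that of Gclc without wild type replicate 2.

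**Figure D2:**
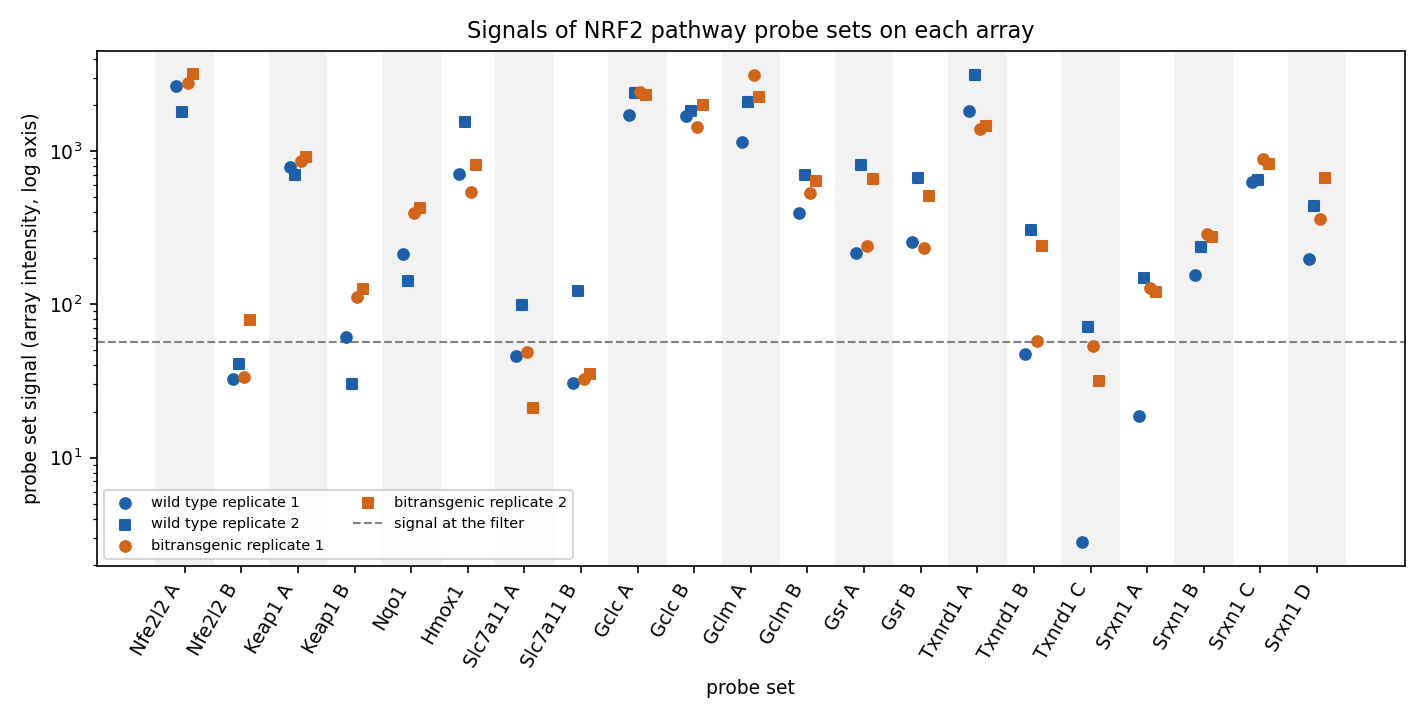
Signal (log axis) of each of the 21 probe sets on each array; letters order the probe sets of a gene by identifier, and the dashed line is the filter at a signal of 57.0. Bitransgenic signals of Nqo1 lie above both wild type signals, whereas the Gsr signals separate by replicate number within each genotype.

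The regulators came first. Nfe2l2, which encodes NRF2, had signals of 2653 and 1784.5 on the wild type arrays, against 2759 and 3162.5 on the bitransgenic arrays with its brighter probe set. Both bitransgenic arrays lay above both wild type arrays, but wild type replicate 1 lay close to bitransgenic replicate 1. The difference was 0.44 ± 0.28 (SE; 1.35-fold, 95% interval -0.23 to 1.11, adjusted p = 0.502 with limma). Between the arrays numbered 1 it was 0.056, and between those numbered 2 it was 0.82. The dimmer probe set B stayed below the filter, with signals from 32.8 to 79.0. NRF2 activity is set mainly by protein stability, which these arrays do not measure.

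Keap1, the adaptor that presents NRF2 for degradation, had signals of 781 and 699 on the wild type arrays, against 863 and 914 on the bitransgenic arrays. The groups did not overlap, and the difference was 0.26 ± 0.26 (SE; 95% interval -0.35 to 0.87, adjusted p = 0.681), which for this probe set leaves out a change of 2-fold either way. With the mean of both probe sets it was 0.71 ± 0.29 (SE; 95% interval 0.0018 to 1.43, adjusted p = 0.307), which holds 2-fold. The other Keap1 probe set, B, was far dimmer, at 60.8 and 30.2 on the wild type arrays, against 111 and 125 on the bitransgenic arrays. Its difference was 1.17 ± 0.43 (SE; adjusted p = 0.345 in the fit of 27022 kept probe sets). Wild type replicate 2 of probe set B lay below the filter's signal of 57.0, and B passed the filter through its bitransgenic signals. Its place among the kept probe sets thus depends on the group where it is high.

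Nqo1, a quinone reductase and the usual readout of NRF2 activity, had the largest difference among the probe sets that stand for their genes. The difference of the dim Keap1 B was slightly larger. The only Nqo1 probe set read 212 and 141 on the wild type arrays, against 393 and 421 on the bitransgenic arrays. Both bitransgenic arrays were clearly above both wild type arrays. The difference was 1.16 ± 0.34 (SE), or 2.23-fold, with a 95% interval of 1.27-fold to 3.93-fold (adjusted p = 0.151 with limma). Between the arrays numbered 1 it was 0.85, and between those numbered 2 it was 1.48. When each array was left out in turn the difference ran from 0.89 to 1.43, and the adjusted p from 0.0856 to 0.525.

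Hmox1, haem oxygenase 1, which opens haem to biliverdin, iron and carbon monoxide, differed in the opposite direction. Its signals were 709 and 1538 on the wild type arrays, against 542 and 811 on the bitransgenic arrays. The groups overlapped, because wild type replicate 1 lay between the bitransgenic arrays, and wild type replicate 2 was the highest. The difference was -0.64 ± 0.43 (SE; 95% interval -1.67 to 0.38, adjusted p = 0.523), and leaving out wild type replicate 2 gave -0.093 where leaving out replicate 1 gave -1.19. Macrophages are a known source of Hmox1. All 9 macrophage markers passed the filter and none passed the test, and their summed signal was 17654 and 11142 on the wild type arrays, against 23052 and 32307 on the bitransgenic arrays. Wild type replicate 2 thus had the highest Hmox1 and the lowest macrophage sum. The part of these cells in the Hmox1 values was not tested.

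The glutathione branch starts with cystine uptake. Slc7a11, the cystine and glutamate exchanger xCT, was dim. Probe set A read 46.1 and 98.9 on the wild type arrays, against 48.8 and 21.0 on the bitransgenic arrays, and probe set B read 30.8 and 122.6, against 32.4 and 35.3. With both probe sets wild type replicate 2 was the highest array, and the other 3 lay at or below 48.8. Neither passed the filter, and in a fit of all 45037 probe sets the differences were -0.79 ± 0.55 and -0.69 ± 0.62 (SE; adjusted p = 0.732 and 0.792 with limma). Melanocytes use xCT to supply cystine for pheomelanin. Summed over 8 of 8 melanocyte markers tested, the signal was 2101 and 16616 on the wild type arrays, against 2101 and 2395 on the bitransgenic arrays. The array with the high Slc7a11 signals was thus the one with the high melanocyte sum, led by Dct at 5486 and Tyrp1 at 3658. Their part in the Slc7a11 values was not tested.

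Glutamate-cysteine ligase, the rate-limiting enzyme of glutathione synthesis, has a catalytic subunit (Gclc) and a modifier subunit (Gclm). The interval of Gclc left out a change of 2-fold either way. Its brighter probe set read 1717 and 2381 on the wild type arrays, against 2410 and 2297 on the bitransgenic arrays, a difference of 0.22 ± 0.26 (SE; 95% interval -0.41 to 0.84, adjusted p = 0.742). Probe set B read 1688 and 1809 against 1432 and 1989, a difference of -0.049. The groups overlapped with both probe sets, and the interval of each lay within 2-fold.

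For Gclm the probe sets differed. Probe set A read 1146 and 2087 on the wild type arrays, against 3127 and 2236 on the bitransgenic arrays, a difference of 0.77 ± 0.35 (SE; 1.70-fold, 95% interval 0.94-fold to 3.07-fold, adjusted p = 0.353). Wild type replicate 2 and bitransgenic replicate 2 lay close together, so that the difference was 1.44 between the arrays numbered 1 and 0.099 between those numbered 2. Leaving out wild type replicate 1 gave 0.34, and leaving out replicate 2 gave 1.20 (adjusted p = 0.0656). Probe set B read 392 and 700.5, against 534 and 632, with overlap and a difference of 0.14 ± 0.37.

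Gsr, glutathione reductase, which regenerates reduced glutathione, separated by replicate number and not by genotype. Probe set A read 216 and 809 on the wild type arrays, against 238.5 and 654 on the bitransgenic arrays, and probe set B read 254 and 663, against 234 and 511. In both genotypes replicate 2 was the higher array with both probe sets, whose annotation cites 1 and the same transcript record. The genotype difference was -0.085 ± 0.70 (SE; 95% interval -1.77 to 1.60, adjusted p = 0.971), and its sign turned under quantile normalization. This is the widest interval among the tested members, and it allows a 3-fold difference in either direction. With replicate number as a block the difference was the same by construction, its SE was 0.29 and its interval ran from -0.80 to 0.63 (adjusted p = 0.910).

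In the thioredoxin branch the main members differed in opposite directions. Txnrd1, cytosolic thioredoxin reductase, a selenoprotein that recharges thioredoxin, read 1825 and 3135 on the wild type arrays, against 1389 and 1457 on the bitransgenic arrays with its brightest probe set. Both bitransgenic arrays lay below both wild type arrays, the only member for which this held. The difference was -0.74 ± 0.31 (SE; 1.67-fold lower, 95% interval -1.50 to 0.010, adjusted p = 0.306), and leaving out wild type replicate 2 gave -0.36 where leaving out replicate 1 gave -1.13. Probe set B read 47.5 and 304 on the wild type arrays, against 57.8 and 239 on the bitransgenic arrays. These signals again separated by replicate number, with a genotype difference of -0.055 ± 0.90. Probe set B passed the filter through its replicate 2 signals. Probe set C, whose suffix _x_at marks probes that can read other transcripts, stayed below the filter. Wild type replicate 2, the array with the highest Txnrd1, also had the highest sums of the hair and melanocyte markers, and their part in the Txnrd1 values was not tested.

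Srxn1, sulfiredoxin, which rescues overoxidised peroxiredoxins, was read by 4 probe sets. The brightest, C, read 625 and 646 on the wild type arrays, against 882 and 818 on the bitransgenic arrays. Both bitransgenic arrays lay above both wild type arrays, with little spread within a genotype. The difference was 0.41 ± 0.26 (SE; 1.33-fold, 95% interval -0.21 to 1.03, adjusted p = 0.498), and leaving out each array in turn gave 0.36 to 0.46. Probe sets A, B and D had differences of 0.89 ± 0.73, 0.52 ± 0.37 and 0.70 ± 0.49. All 4 were thus positive, although they read 1 gene on the same arrays and none passed. The groups overlapped with A and D. With probe sets of suffix _x_at or _s_at left out, C among them, the difference was 0.70 ± 0.48 (SE; 95% interval -0.44 to 1.84). For A the wild type arrays were 18.6 and 149, so its value rests on a signal below the filter.

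**Figure D3:**
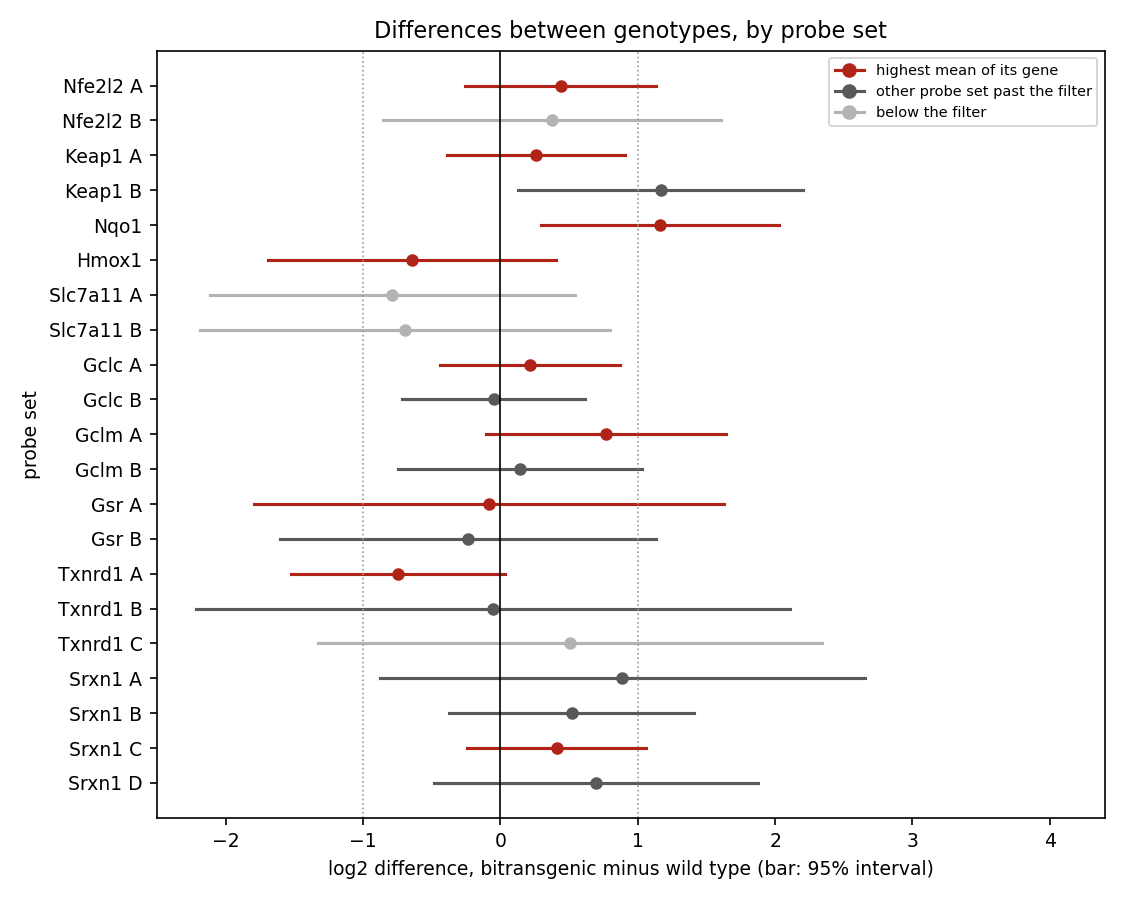
Log2 difference between bitransgenic and wild type skin for each of the 21 probe sets with its 95% interval, from the fit of kept probe sets or, for the 4 below the filter, of all probe sets; dotted lines mark 2-fold. Only the intervals of Nqo1 and Keap1 B lie off 0, and neither passed after adjustment.

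At the level of probe sets, 0 of the 17 kept were called, against 0.762% of all 27022, and 2 had an unadjusted p under 0.05, Nqo1 and Keap1 B, against 12.2% of all. Keap1 B passed the filter only through its bitransgenic signals and is no support for a difference. Positive differences were seen for 11 of the 17, against 50.7% of all. Where a gene had several probe sets past the filter, the further ones had the sign of the brightest for Keap1, Gclm, Gsr, Txnrd1 and Srxn1, and the opposite sign for Gclc.

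The members varied more between the wild type arrays than between the bitransgenic arrays. The median absolute difference between the arrays of a genotype was 0.57 in wild type and 0.11 in bitransgenic skin for the 9 members, against 0.39 and 0.29 for all genes tested. Of the 17 kept probe sets, 8 were higher in replicate 2 in both genotypes (47.1%, against 32.2% of all kept probe sets) and 0 were lower in both (against 30.1%). A difference of 2-fold or more in both was seen for 3 of 17 (17.6%), Gsr A, Gsr B and Txnrd1 B, against 1.03% of all kept probe sets, a limit chosen after the values were seen. The 2 Gsr probe sets are not independent. Txnrd1 B passed the filter through its replicate 2 signals, and is no support for a difference between replicate numbers. In replicates 1 it read 47.5 and 57.8, against 304 and 239 in replicates 2. Bacterial spike-in controls also separated by replicate number, with mean signals of 1528 and 1598 in replicates 1 and 328 and 465 in replicates 2. Whether replicate number marks a shared step is not given in the labels. With replicate number as a block in the fit of kept probe sets, the SE of the genotype difference fell from 0.90 to 0.35 for Txnrd1 B. It fell from 0.71 to 0.30 and from 0.57 to 0.29 for Gsr A and B, and none passed. These 3 were picked for their replicate differences, so the fall in SE follows from that choice and is no support for a shared step.

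**Figure D4:**
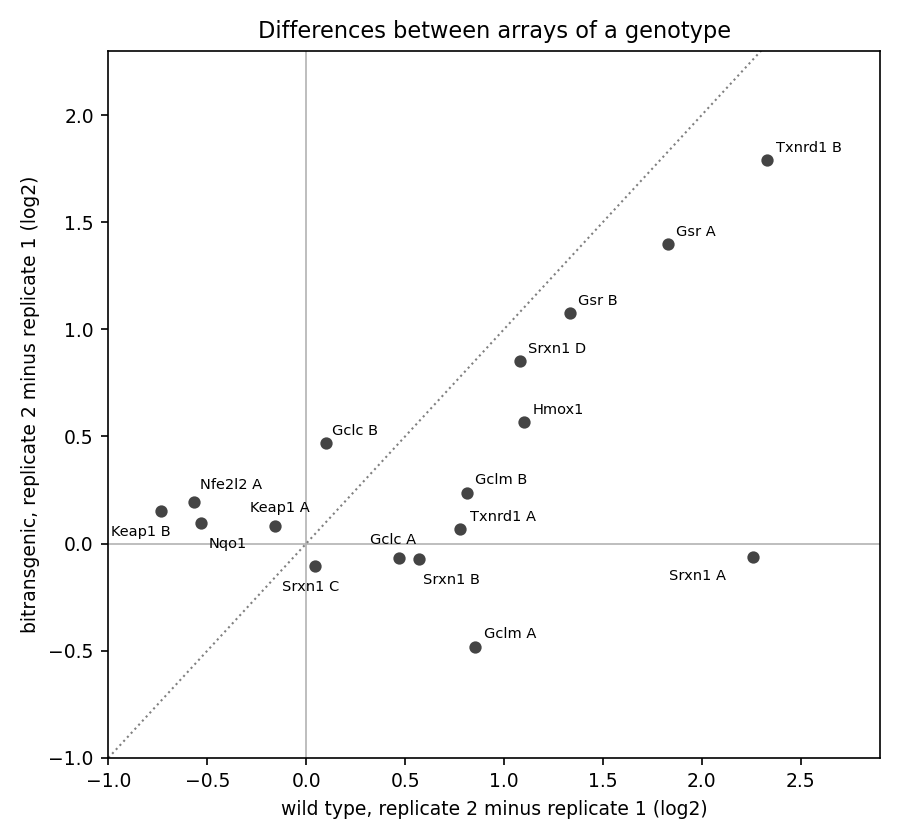
Replicate 2 minus replicate 1 on the log2 scale in wild type (horizontal axis) and bitransgenic skin (vertical axis) for the 17 kept probe sets; the dotted line marks equal differences. Txnrd1 B and the Gsr probe sets are higher in replicate 2 of both genotypes, and Srxn1 A differs between the wild type arrays alone.

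Beyond the members, 85 other genes of the pathway and its neighbours were read, of which 75 were tested. With limma, 0 rose and 1 fell, against 0.750% and 1.58% of all genes, and 12 were higher and 6 lower at an unadjusted p under 0.05, against 6.91% and 9.76% of all genes. The median over the 75 was 0.051, with 40 positive and 35 negative values. The groups did not overlap for 28 higher and 12 lower genes, against 23.9% and 24.9% of all genes.

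The gene that fell was Chac1, a glutathione-degrading enzyme under control of the stress factor ATF4. Its signals were 1879 and 1867 on the wild type arrays, against 374 and 423 on the bitransgenic arrays. The groups were far apart and the arrays within each were close. The difference was -2.19 ± 0.25 (SE), or 4.57-fold lower (adjusted p = 0.0143 with limma). The call was lost without bitransgenic replicate 1 (-2.11, adjusted p = 0.0829) or replicate 2 (-2.28, adjusted p = 0.0549). Hair and skeletal muscle marker sums were lower on the same arrays, and their part in the Chac1 values was not tested. The other 11 genes of the ATF4 and amino acid stress list did not pass, and 9 of the 12 had positive values, with a list median of 0.50 (0.32 without wild type replicate 1). Psat1, a serine synthesis enzyme named after its values were seen, read 1297 and 1864 against 6198 and 3927 (adjusted p = 0.0605).

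Of 18 other NRF2 target genes tested, none passed. Of these, 10 had values above 0 and 8 below it, the median being 0.23, and 2 genes were higher at an unadjusted p under 0.05. The groups did not overlap for 9 higher and 1 lower gene, against 23.9% and 24.9% of all genes. Abcc4, a transporter that exports organic anions and conjugates, came closest, with signals of 711 and 436 on the wild type arrays, against 1650 and 1722 on the bitransgenic arrays. The bitransgenic arrays stood well above the wild type arrays, and the difference was 1.57 ± 0.31 (SE; 2.97-fold, adjusted p = 0.0616). It passed with equal array medians (1.65, adjusted p = 0.042) and without wild type replicate 1 (1.91, adjusted p = 0.0135) or replicate 2 (1.23, adjusted p = 0.0444).

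None of 11 partners, competitors and turnover factors of NRF2 passed, with a median of -0.13. Nfe2l3, the NRF3 gene of the same family, had the smallest p, with signals of 3447 and 5071 against 2162 and 2869 (adjusted p = 0.272). Nfe2l1, named after its values were seen, differed in the opposite direction, at 972 and 1892 against 2132 and 3147 (adjusted p = 0.297 with limma). The list had 4 positive and 7 negative values. Of 16 other glutathione genes none passed, with a median of -0.054, and 4 were higher and 4 lower at an unadjusted p under 0.05. Anpep, a membrane aminopeptidase, read 1452 and 1477 on the wild type arrays, against 345 and 651 on the bitransgenic arrays (-1.59 ± 0.35, SE; adjusted p = 0.0824). Slc3a2, the heavy chain that partners xCT, was chosen after its values were seen and had a difference of 0.022 ± 0.23.

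Of 10 other thioredoxin and peroxiredoxin genes none passed, with a median of 0.042. Txnrd3, a thioredoxin and glutathione reductase best known from testis, read 753 and 478 on the wild type arrays, against 1508 and 1925 on the bitransgenic arrays (1.48 ± 0.32, SE; adjusted p = 0.0766). It stood opposite in sign to its relative Txnrd1. The 3 superoxide dismutases had values from -0.091 to 0.18, the latter for Sod1 (adjusted p = 0.871). Of 5 genes of haem breakdown and synthesis none passed, with a median of 0.45, which was 0.22 with no filter. Blvra, the biliverdin reductase that acts after haem oxygenase, read 952 and 1212 against 1696 and 1903 (0.73 ± 0.26, SE; adjusted p = 0.219), opposite in sign to Hmox1.

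**Figure D5:**
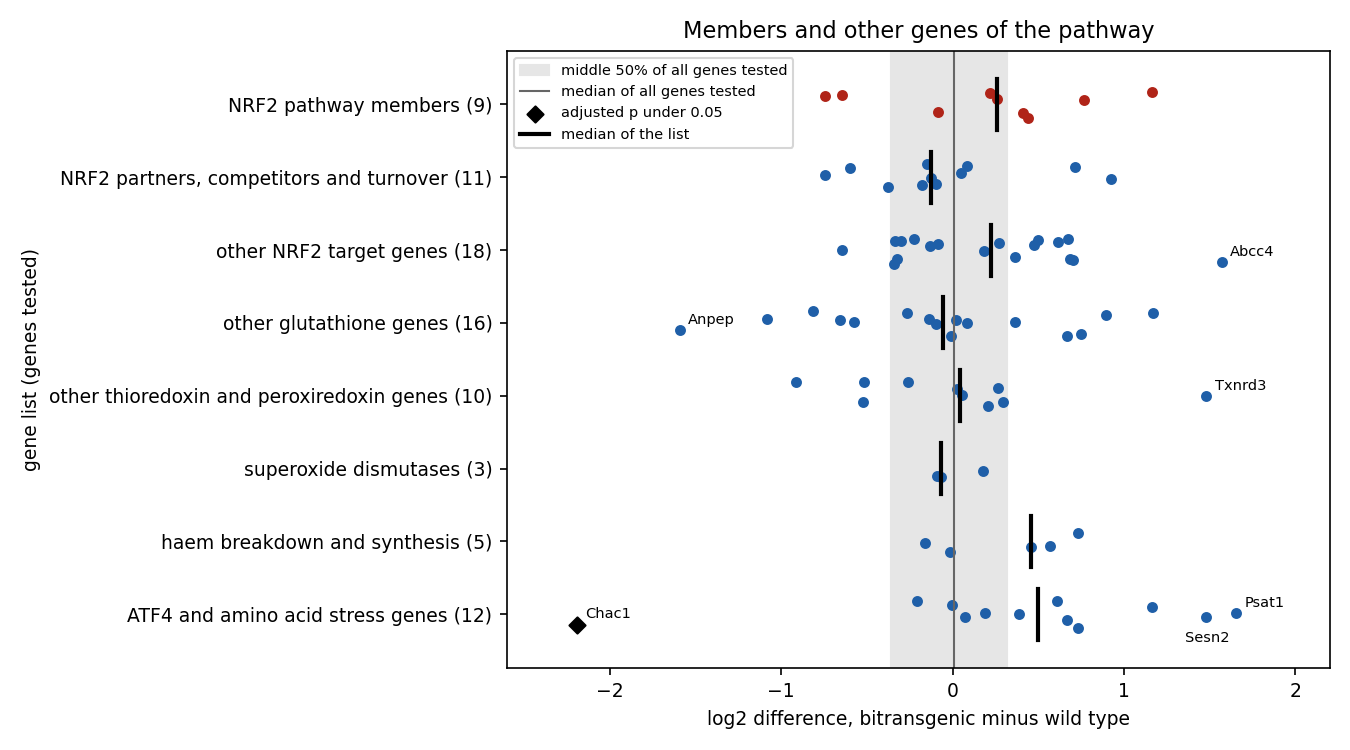
Log2 difference of each tested gene by list, with the median of each list as a bar and the middle 50% of all genes tested as a grey band; genes beyond 1.4 in either direction are named. Chac1 is the only gene past the threshold, and the members range from -0.74 for Txnrd1 to 1.16 for Nqo1.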

How the data were processed

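RNA from dorsal skin, of 2 mice per genotype, was hybridised to 1 array per mouse. The deposited values are probe set signals, intensity on a linear scale, 1 column per array; the authors' tools were MAS5 and affy, per the submitters' processing notes, with no versions given in the sources used here. The mean of each array with 2% trimmed at each end was between 496.7 and 497.9, so values are relative to the rest of the array. Platform annotation named the probe sets, and those with several symbols named no gene.

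Signals were taken as log2(signal + 16). Probe sets with a mean at or above the 40th percentile (a signal of 57.0) were kept, and the kept probe set with the highest mean stood for its gene. The genotype contrast was fitted by limma 3.58.1 under R 4.3.3 (lmFit, eBayes with an intensity trend; 2 residual and 4.45 prior degrees of freedom), with Benjamini-Hochberg adjustment over 13070 genes or 27022 probe sets and a threshold of 0.05. Each tested member is given with every probe set, and of each other list the genes past the threshold or, failing these, the gene with the smallest p. The members and lists were chosen with earlier results of these data known. In all, 14 alternative settings were computed. No coordinates of probe sets are given, and precision is limited by the number of arrays.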

Additional observations from a re-analysis of the deposited data

How the results depend on the processing

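No member passed the threshold under any of the 14 alternatives run (pseudocount, filter, normalization, choice of probe set, variance trend, replicate block and leaving out each array), and the adjusted p of the 9 tested members ran from 0.0656 to 0.999. Of 126 values of members under these alternatives, 122 kept their sign. Gclc turned to -0.017 without wild type replicate 1. Gsr turned to 0.023 under quantile normalization; the cause was not tested. Over the arrays left out in turn, Gclc ran from -0.017 to 0.45 and Gsr from -0.999 to 0.83, and Gsr was also above 0 with bitransgenic replicate 1 left out (0.61).

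Over all genes, 98 were higher and 206 lower; the counts were 52 and 132 with no filter, 22 to 314 and 96 to 635 when each array was left out, and 207 and 438 with the replicate block. The fewest calls came without bitransgenic replicate 1, and leaving out wild type replicate 2 gave the most. Same-numbered arrays deviated from their group means with a correlation of 0.21 over genes and 0.34 over kept probe sets, and spike-in signals split by number, but with 2 pairs and no label for a shared step the numbers were not taken as pairs. With the replicate block 0 members were called, and Nqo1 had an adjusted p of 0.112.

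Of the other pathway genes, 0 rose and 1 fell. With equal array medians 1 rose (Abcc4). With the replicate block 3 rose (Abcc4, Hagh and Psat1) and 2 fell (Anpep and Chac1). When each array was left out 0 to 4 rose and 0 to 1 fell: without wild type replicate 1 Abcc4 and Txnrd3 rose, and without wild type replicate 2 Abcc4, Nfe2l1, Psat1 and Slc7a5. Over the alternatives the list medians ran from -0.17 to -0.038 for the NRF2 partners and from -0.24 to 0.11 for the other glutathione genes. They ran from -0.14 to 0.19 for the thioredoxin and peroxiredoxin genes and from -0.31 to 0.24 for the superoxide dismutases. For the other NRF2 target genes the range was 0.21 to 0.31. It was 0.32 to 0.57 for the ATF4 and amino acid stress list and 0.22 to 0.53 for the haem genes. With 2 arrays per group the intervals of 7 of the 9 members hold a difference of 2-fold.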
